A study of Mus musculus with 653 samples.

Results

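Bulk cells sorted with the Liv2 antibody from mouse embryonic livers were compared between stages E10.5 and E13.5 (E gives days of embryonic development). Members were all cells whose labels give a bulk sort, or 362 of the 653 cells of the series. By library pool (1 to 5) they were 42, 41, 41, 42 and 37 cells at E10.5 and 34, 34, 33, 34 and 24 cells at E13.5. The other 291 cells were sorted for Lgr5-GFP and were not used. Both stages came from matings of male *Lgr5-EGFP-IRES-creERT2* mice on a C57BL/6 background with MF1 females, so an allele that places EGFP and a Cre recombinase under the *Lgr5* locus was carried by sires of both groups. No agent was given to either group according to the labels. Cells were sorted as positive for Liv2, a surface antigen of hepatoblasts, and negative for CD31 (endothelium) and CD45 (blood cells other than most of the red lineage). Livers were digested for longer at E13.5 than at E10.5, so digestion and stage cannot be told apart. Every cell was sequenced as its own Smart-seq2 library, a method that amplifies the cDNA of 1 cell and adds no molecular identifiers. The labels name no embryo, litter or pool of livers, so the cells of a stage count as 1 sample here and no p-value is given. The study's methods speak of separate sorts as biological replicates, which the labels do not tie to cells. Each library pool holds both stages, and values are given within pools where a result rests on them.

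The liver bud grows out of the foregut endoderm into the mesenchyme of the septum transversum, and its first epithelial cells, the hepatoblasts, later give hepatocytes and cholangiocytes. The young organ then becomes the main site of blood formation, where red cell precursors come to outnumber the epithelium. Early red cells make embryonic globins, and those formed in the fetal liver make adult globins. Mesenchymal cells of the bud surround the hepatoblasts and supply signals such as Bmp4 and pleiotrophin.

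Levels are given in RPM, the number of reads on a gene out of every 1000000 reads on genes, counted over the pooled reads of all cells in a group. The difference between stages is given as log2 of (RPM + 1) at E13.5 over (RPM + 1) at E10.5, so that a positive value means higher at E13.5. A gene was called from a 4-fold difference on this scale with the same sign in all 5 library pools. Intervals are exact 95% intervals (Poisson for reads, Clopper-Pearson for shares of cells) and cover counting error only, since amplified reads are not independent molecules. Where no cell passed a limit, the share allowed is given as 3 cells out of the group, in place of such an interval. Cells had 512970 to 2029763 reads at E10.5 (median 1260402) and 566705 to 2131195 at E13.5 (median 1092637). Pools 1 and 2 stood apart from pools 3, 4 and 5 before any comparison was made. Their cells had a median of 4571 and 4488 detected genes at E10.5 and of 4555 and 4229 at E13.5, against 6024 to 6764 and 5917 to 6162 in the other pools. Of the 315 index pairs among these cells, 47 were used in more than 1 pool, and no pair was used for 2 cells of the same pool.

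The label of these samples calls them hepatoblasts, and few cells of either stage held a list of hepatoblast markers. A cell was taken to hold a marker list when at least 3 of its genes had more than 10 reads each. Hepatoblast markers (12 genes, among them *Afp*, *Alb*, *Apoa1* and *Ttr*) were held by 8 cells at E10.5, or 3.94% (95% interval 1.72 to 7.62), and by 2 cells at E13.5, or 1.26% (0.153 to 4.47). *Afp*, the fetal counterpart of albumin, had more than 10 reads in 8 cells at E10.5 and in 1 cell at E13.5. *Alb*, which encodes albumin, passed that limit in 6 and 3 cells. With 3 reads or 1 read required per marker in place of more than 10, the E10.5 share was 22.7% or 47.8%. The list does not hold *Mdk*, *Id3* and *Gpc3*, which the study names for these cells and which had 5362, 1866 and 948 RPM over all E10.5 cells. In the E10.5 cells with mesenchymal markers, defined further on, *Mdk*, *Id3* and *Gpc3* had 6264, 2441 and 1239 RPM. The cells are called bulk cells here.

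At E10.5 the mesenchyme list was held by more cells than any other list, and at E13.5 the erythroid list. The mesenchyme list (12 genes, among them the collagens *Col1a1*, *Col1a2* and *Col3a1* and the receptor gene *Pdgfra*) was held by 59.6% of the cells at E10.5 (52.5 to 66.4), with 26, 18, 25, 25 and 27 cells in pools 1 to 5, and by 1 cell at E13.5, or 0.629% (0.0159 to 3.45). Its E10.5 share lay between 43.9% and 73% over the pools, and was 36.45% where at least 5 markers were required. The erythroid list (12 genes, among them *Gata1*, *Klf1* and *Epor*) was held by 39 cells at E10.5, or 19.2% (14 to 25.3), and by 79.9% of the cells at E13.5 (72.8 to 85.8), with 29, 17, 28, 31 and 22 cells in pools 1 to 5. Pool by pool the erythroid share was 2.38%, 7.32%, 26.8%, 40.5% and 18.9% at E10.5 and 85.3%, 50%, 84.8%, 91.2% and 91.7% at E13.5, so the groups of pools did not overlap. No cell of either stage held the mesenchyme and erythroid lists together.

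**Figure D1:**
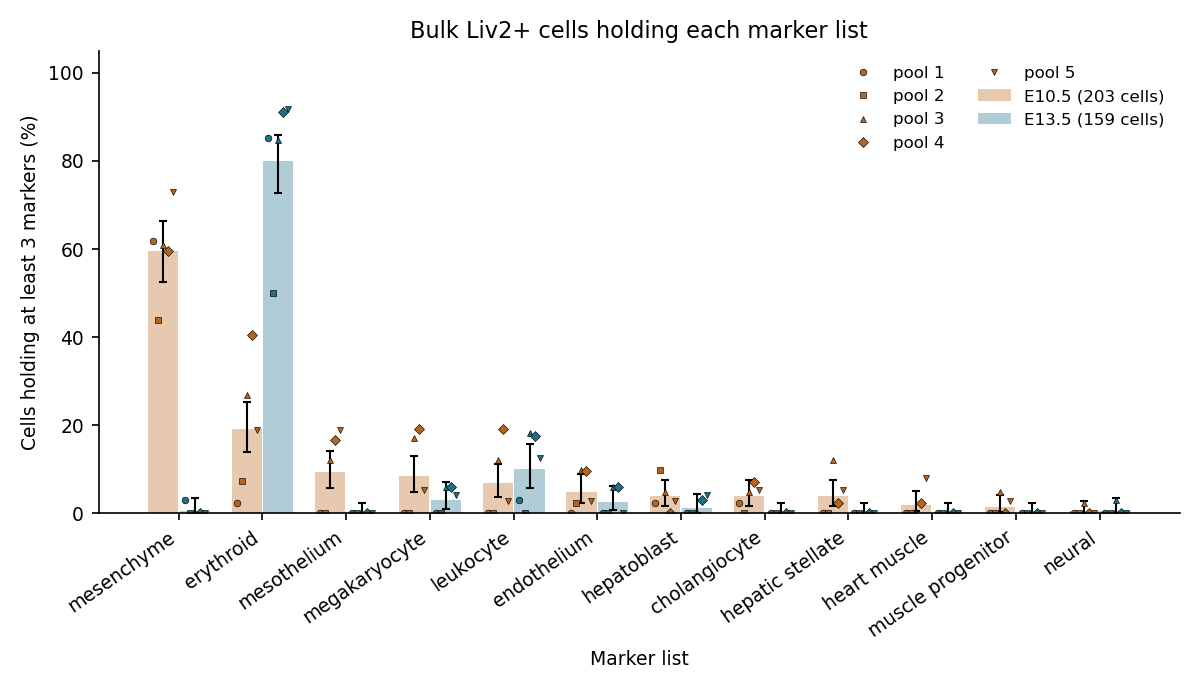
Share of bulk cells (%) that hold at least 3 markers of each list, with bars for the stage, lines for the exact 95% interval and points for the 5 library pools. Mesenchyme stands at 59.6% of the E10.5 cells and erythroid markers at 79.9% of the E13.5 cells, while hepatoblast markers stay under 10% in every pool.

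Smaller marker groups also differed in number. Mesothelium markers, which mark the lining of the organ, were held by 19 E10.5 cells, all of which also held the mesenchyme list, and by 0 E13.5 cells, which allows a share of up to 1.89%. Hepatic stellate, cholangiocyte, heart muscle and muscle progenitor markers were held by 8, 8, 4 and 3 cells at E10.5 and by 0 cells each at E13.5. Megakaryocyte markers, which mark platelet precursors, were held by 17 cells at E10.5 and 5 at E13.5, and 16 and 4 of these also held the erythroid list. Leukocyte markers were held by 14 cells (6.90%, 3.82 to 11.3) at E10.5 and 16 cells (10.1%, 5.86 to 15.8) at E13.5, endothelium markers by 10 and 4, and neural markers by 1 and 1. The genes behind the negative gate were low. *Ptprc*, which encodes CD45, had more than 10 reads in 0 cells at E10.5 and 8 cells at E13.5, and *Pecam1*, which encodes CD31, in 16 and 13 cells.

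Cells that held none of the 12 lists came almost wholly from pools 1 and 2, where fewer genes were detected per cell. There were 31 such cells at E10.5, 14 in pool 1, 16 in pool 2 and 1 in pool 5, and 20 at E13.5, 3 in pool 1 and 17 in pool 2. They had a median of 4329 and 4269 detected genes, against 5806 and 5723 in the other cells of their stage. Of the 31, 16 held exactly 2 mesenchyme markers, and of the 20, 14 held exactly 2 erythroid markers. The list limit cuts a range of marker numbers, with 21 E10.5 cells at exactly 3 mesenchyme markers and 18 at exactly 2, and 11 E13.5 cells at exactly 3 erythroid markers and 19 at exactly 2. Cells with more than 10 reads of Y-linked genes were 81 at E10.5 and 58 at E13.5.

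Over all genes, 10751 had at least 3 reads in at least 5% of the bulk cells and were considered. Of these, 230 were called higher at E13.5 (2.14%) and 1227 higher at E10.5 (11.4%). Those percentages are the background against which every gene list below is read. With pools 1 and 2 alone, 602 genes were past the limit toward E13.5 and 1323 toward E10.5. Another 71 and 284 genes were past 4-fold without the same sign in all 5 pools. The median log2 ratio over the genes considered was -0.10, and 63.5% of them lay within 2-fold. Genes called higher at E13.5 took 0.766% of all reads at E10.5 and 5.64% at E13.5, and genes called higher at E10.5 took 12.2% and 0.936%. In a sum over cells, fewer cells of a type and less RNA per cell cannot be told apart, and the levels within marker-defined cells are given for that reason further on.

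**Figure D2:**
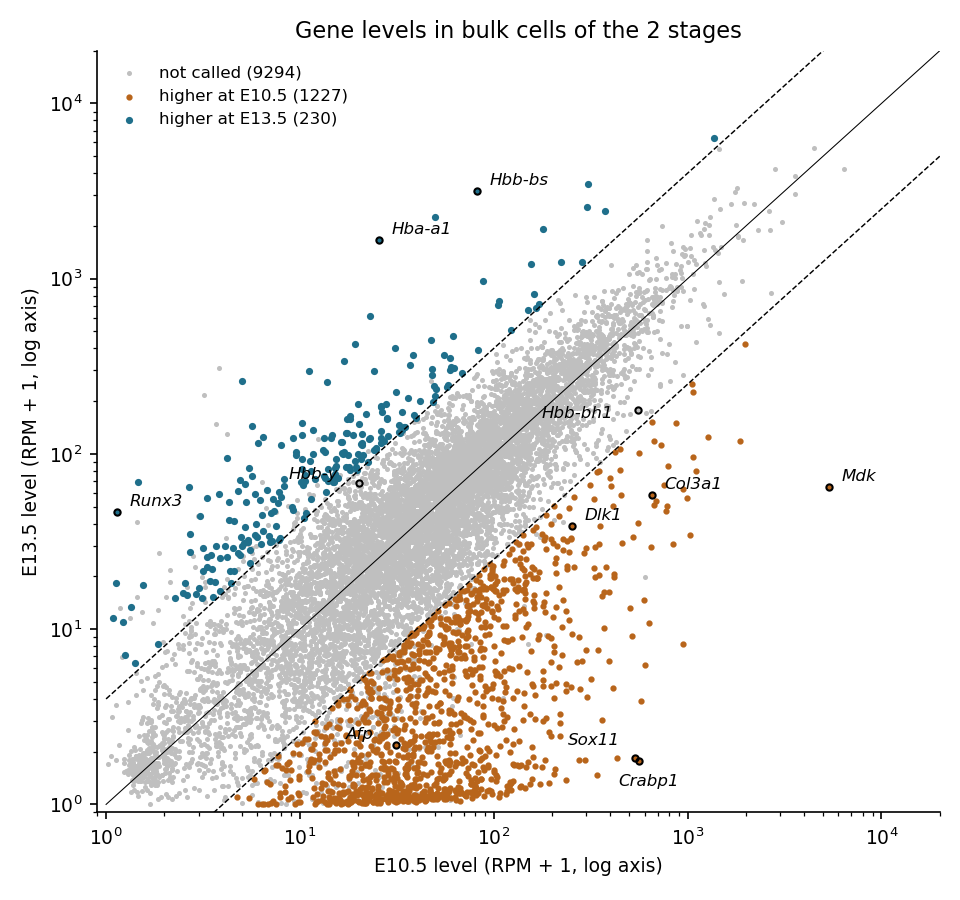
Level of each considered gene at E10.5 (horizontal) and E13.5 (vertical), both in RPM + 1 on log axes, with dashed lines at 4-fold and a solid line at equality. The 1227 genes called higher at E10.5 spread down to the floor of the E13.5 axis, and the 230 called higher at E13.5 include the adult globins.

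Genes named below as leaders come from the 15 with the largest ratio in each direction that had at least 3 reads in at least 20% of the cells of the higher stage and at least 10 RPM there. Among them, the 5 largest positive ratios were those of *Runx3* and of 4 adult globin genes, which encode oxygen carriers of adult red cells. The first was that of *Hba-a1* (alpha chain; ENSMUSG00000069919, chr11:32283511-32284465, plus strand, GRCm38) at 24.5 RPM (23.9 to 25.2) at E10.5 and 1658 RPM (1652 to 1664) at E13.5, a log2 ratio of 6.02. In the 5 pools its level was 19.4, 6.65, 36.3, 39.7 and 18.96 RPM at E10.5 and 918, 2423, 1794, 1026 and 2170 RPM at E13.5, without overlap. *Hbb-bs* (beta chain; ENSMUSG00000052305, chr7:103826534-103828096, minus strand) went from 80.9 RPM (79.8 to 82) to 3169 RPM (3160 to 3177), a log2 ratio of 5.27. *Hbb-bt*, its neighbour, had 48.7 RPM and 2237 RPM, and *Hba-a2* had 4.01 RPM and 261 RPM. *Hba-a1* and *Hba-a2*, and likewise *Hbb-bs* and *Hbb-bt*, are near-identical copies counted from unique reads alone, so the split within each pair is uncertain.

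The 250 bases before the RefSeq start are shown for 3 adult globin genes and 1 embryonic globin gene. The adult genes were among the 5 leaders with the largest positive ratios, and the embryonic gene is their counterpart. Capitals mark AGATAA and TGATAA, which are forms of the site read by GATA factors, and CCNCNCCC, a form of the CACC box read by KLF factors, each on either strand. The sequences are RefSeq's on GRCm38.p6, written 5′ to 3′ on the strand of the gene, at chr7:103827929-103828178 (minus), chr7:103813924-103814173 (minus), chr11:32283422-32283671 (plus) and chr7:103853208-103853457 (minus) in the order given.
Hbb-bs: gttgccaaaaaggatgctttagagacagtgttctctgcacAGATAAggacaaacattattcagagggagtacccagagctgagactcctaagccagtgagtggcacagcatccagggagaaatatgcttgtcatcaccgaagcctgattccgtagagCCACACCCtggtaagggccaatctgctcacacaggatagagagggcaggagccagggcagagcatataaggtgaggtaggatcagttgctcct
Hbb-bt: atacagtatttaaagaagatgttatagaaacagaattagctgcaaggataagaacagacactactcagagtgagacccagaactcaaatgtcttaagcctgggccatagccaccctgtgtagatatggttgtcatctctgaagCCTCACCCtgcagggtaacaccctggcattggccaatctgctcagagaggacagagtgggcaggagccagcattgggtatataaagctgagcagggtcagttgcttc
Hba-a1: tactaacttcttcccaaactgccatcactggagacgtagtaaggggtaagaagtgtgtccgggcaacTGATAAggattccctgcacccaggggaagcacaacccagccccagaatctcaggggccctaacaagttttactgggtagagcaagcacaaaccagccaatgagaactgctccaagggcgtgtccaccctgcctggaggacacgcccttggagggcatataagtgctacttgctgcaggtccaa
Hbb-y: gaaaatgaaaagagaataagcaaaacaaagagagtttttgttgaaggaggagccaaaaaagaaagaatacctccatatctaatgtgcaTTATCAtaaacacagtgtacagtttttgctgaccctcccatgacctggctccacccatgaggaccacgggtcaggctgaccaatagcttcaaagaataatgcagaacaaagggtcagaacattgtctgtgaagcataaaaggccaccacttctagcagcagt

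Over genes with 1 such promoter window, AGATAA or TGATAA stood in 27 windows of genes called higher at E13.5 (19.9%), in 52 of 696 of genes called higher at E10.5 (7.47%), in 542 of 6458 considered (8.39%) and in 3972 of all 22862 windows (17.4%). CCNCNCCC, which contains CCACACCC as 1 of its forms, stood in 70.6%, 77.6%, 65.8% and 44.7% of the same sets. The median share of G and C in the windows was 58.8%, 64%, 60.8% and 52%, in that order. A match is a run of letters and not a bound site.

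Other leaders toward E13.5 had smaller ratios. *Hemgn*, a nuclear protein of blood cells, had 10.2 and 296 RPM (log2 ratio 4.73), *Rhd*, a Rh blood group protein, 15.9 and 338 RPM (4.32), and *Tspo2*, a translocator protein of late red cell precursors, 4.67 and 144.2 RPM (4.68). Single cells ran from 0 to 365 RPM of *Hemgn* with a median of 0 at E10.5, and from 0 to 4004 RPM with a median of 27.1 at E13.5, so the ranges overlapped. *Rgcc*, a regulator of the cell cycle, had 18.2 and 423 RPM (4.47), the tetraspanin *Tspan33* 5.42 and 123.9 RPM (4.28), and the claudin *Cldn13* 12.7 and 258 RPM (4.24).

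*Runx3*, a transcription factor of blood lineages, was close to 0 in the E10.5 sum. It had 0.138 RPM (0.0963 to 0.192) at E10.5 with more than 10 reads in 0 cells, which allows a share of up to 1.48%, and 45.7 RPM (44.7 to 46.7) at E13.5 with 30 cells past that limit (18.9%, 13.1 to 25.8). At E13.5 it stood at 28.3 to 72.3 RPM in every pool. Of its E13.5 reads, 19.9% lay in 1 cell. The leaders named next had a larger share in 1 cell. *Slc22a4*, a transporter of ergothioneine, had 1.69 and 64 RPM with 22.8% of its E13.5 reads in 1 cell, *Psd4* 2.31 and 55.2 RPM with 28.1% in 1 cell, and the unnamed transcript *AI662270* 0.119 and 17.2 RPM with 34.3% in 1 cell.

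**Figure D3:**
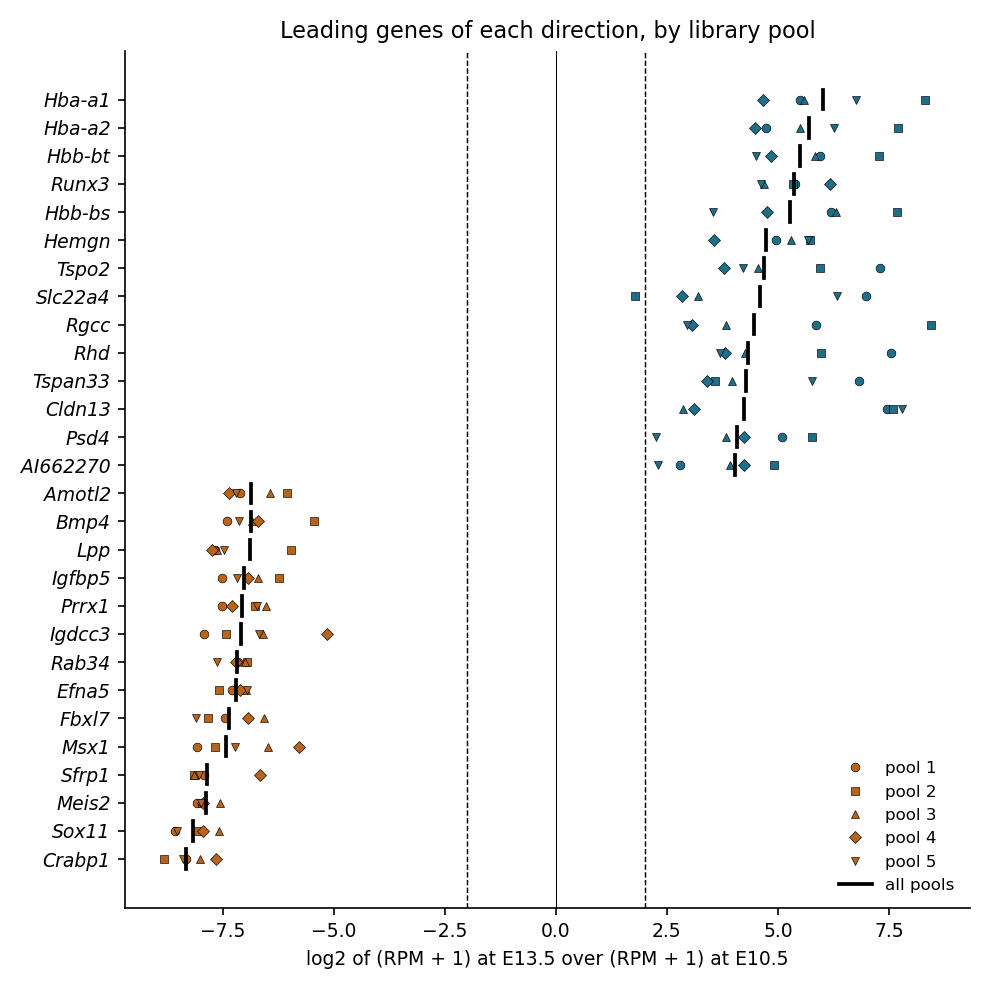
Log2 ratio of 14 leading genes of each direction in the 5 library pools (points) and over all pools (bars), with dashed lines at 4-fold. Ratios of the E10.5 genes lie close together between pools, and those of the E13.5 genes spread more widely, as for *Slc22a4* (1.79 to 6.99).

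In the opposite direction the first leaders were *Crabp1*, *Sox11* and *Meis2*. *Crabp1* (ENSMUSG00000032291, chr9:54764748-54773110, plus strand), which encodes a retinoic acid binding protein, had 564 RPM (561 to 567) at E10.5 and 0.762 RPM (0.639 to 0.901) at E13.5, a log2 ratio of -8.32. It passed 10 reads in 82 E10.5 cells and in 0 E13.5 cells, and its E10.5 cells ran from 0 to 16650 RPM with a median of 2.47. *Sox11*, a transcription factor of progenitor cells, was spread over more cells, with 66.01% of E10.5 cells and 0 E13.5 cells past 10 reads and levels of 534 RPM (531 to 537) and 0.841 RPM (0.711 to 0.987). *Meis2*, a homeobox partner of Hox and Pbx proteins, had 434 and 0.841 RPM and passed 10 reads in 57.6% of E10.5 cells and in 0 E13.5 cells. In every pool *Crabp1*, *Sox11* and *Meis2* had at least 228 RPM at E10.5 and at most 1.8 RPM at E13.5.

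The secreted Wnt antagonist *Sfrp1* had 340 and 0.463 RPM, the homeobox genes *Msx1* and *Prrx1* had 236 and 0.378 RPM and 172.9 and 0.305 RPM, and the growth factor gene *Bmp4* had 152.8 and 0.316 RPM. *Efna5*, a ligand of Eph receptors, had 577 and 2.91 RPM, *Igfbp5*, which binds insulin-like growth factors, 207.2 and 0.598 RPM, and *Lpp*, a protein of cell adhesions, 360 and 2.04 RPM. *Fbxl7*, *Rab34* (a small GTPase) and *Igdcc3* had 192.8 to 296 RPM at E10.5 and 0.333 to 0.79 RPM at E13.5, and *Amotl2* (an angiomotin-like protein) had a log2 ratio of -6.87. The low E13.5 values are set by few reads per cell, and in these genes at most 2 E13.5 cells passed 10 reads.

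Lists of red cell genes had most of their called members on the E13.5 side. Of 16 genes of the red cell membrane and cytoskeleton, 15 were considered, 13 were called higher at E13.5 and 0 lower, with a median log2 ratio of 3.46 against -0.10 over all genes. *Ermap*, a red cell adhesion protein, had 87.2 and 972 RPM, *Rhag*, which carries the Rh complex, 35.9 and 321 RPM, and *Slc4a1*, the anion exchanger band 3, 0.458 and 68.6 RPM. *Epb41*, which encodes protein 4.1, was not called, with 118.8 and 123.3 RPM. Of 13 erythroid transcription factor genes considered, 7 were called higher at E13.5 and 0 lower, with a median of 2.23. *Klf1*, the activator of adult beta globin, had 154.7 RPM (153.2 to 156.3) and 1205 RPM (1200 to 1210), *Gata1*, the master regulator of the lineage, 82.2 and 390 RPM, and *Gfi1b*, a repressor, 60.7 and 468 RPM. *Runx1*, a factor of blood stem cells, had 54.6 and 365 RPM, with 29.15% of its E13.5 reads in 1 cell.

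Of 15 genes of haem synthesis and iron uptake considered, 9 were called higher at E13.5 and 0 lower, with a median of 2.06. *Alad* and *Cpox*, which are enzymes along the path to haem, had 374 and 2443 RPM and 170 and 719.1 RPM. The iron store *Fth1* fell short of the limit at 1452 and 5464 RPM (log2 ratio 1.91). *Alas2*, the enzyme of red cells that starts haem synthesis, was listed at 0 in every bulk cell. It was 1 of 37 list genes without a read, among them *Igf2* and 17 of 39 Hox genes. Of those 37, 5 shared at least 50% of their exonic bases with another annotated gene, against 6 of the other 353 list genes. A zero for these genes was not read as absence.

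The erythroid markers themselves summed to 629 RPM at E10.5 (167.1 to 1023 over pools) and 4964 RPM at E13.5 (3581 to 5908), and 11 of the 12 were called. *Nfe2* was the 1 not called, with 81.9 and 245 RPM. Leukocyte markers summed to 113.4 RPM (6.74 to 271) and 526 RPM (75.3 to 1435), with 2 of 8 considered called higher at E13.5 (*Spi1* and *Tyrobp*). Megakaryocyte markers summed to 860 RPM at E10.5 and 101.3 RPM at E13.5, but the E10.5 sum ran from 0.196 to 2502 RPM over pools and 0 of the 5 considered were called. The platelet chemokine *Pf4* made up most of it, with 600 and 18.9 RPM.

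**Figure D4:**
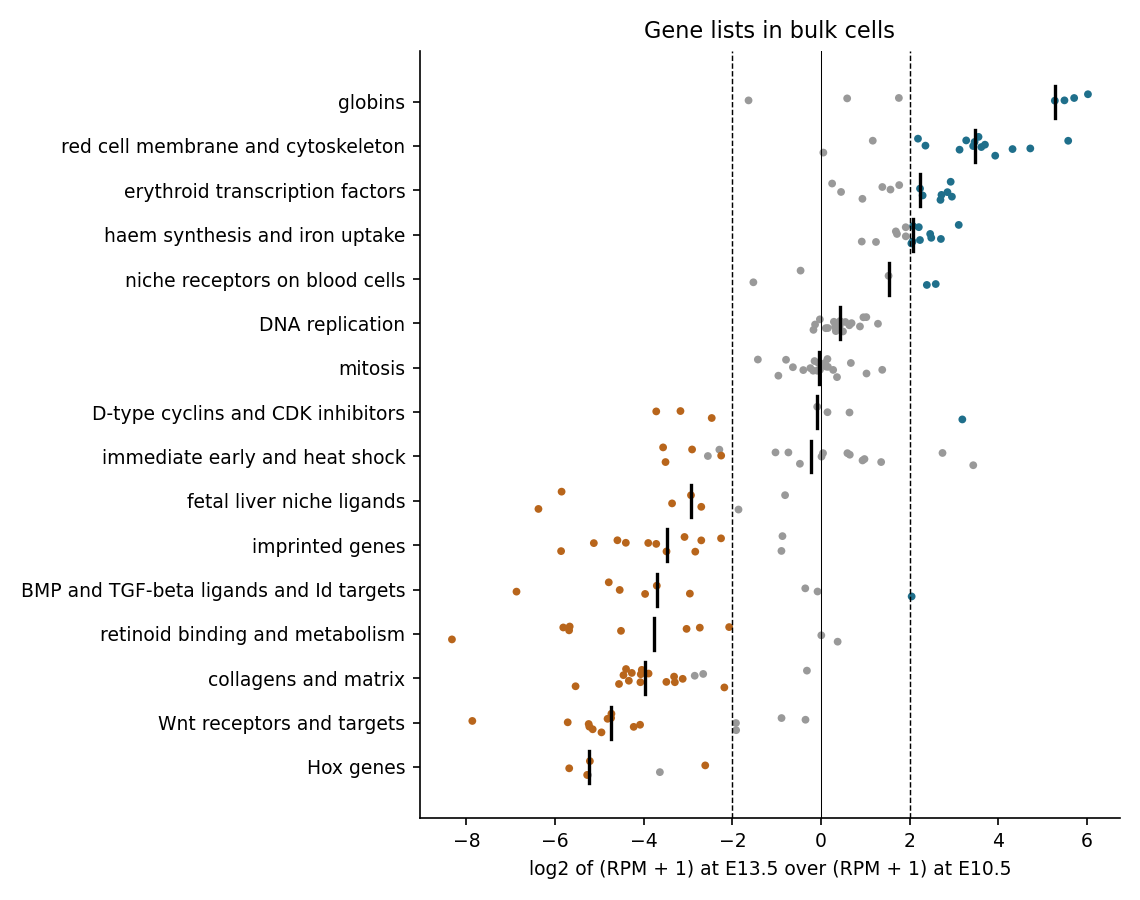
Log2 ratio of each considered gene of 16 lists (points, blue where called higher at E13.5 and orange where called higher at E10.5) with the list median as a bar and dashed lines at 4-fold. Red cell lists lie to the right, matrix, Wnt, Hox and retinoid lists to the left, and the DNA replication and mitosis lists around 0.

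Most considered genes of the matrix and mesenchyme lists were called higher at E10.5. Of 18 collagen and matrix genes considered, 15 were called higher at E10.5 and 0 at E13.5, with a median log2 ratio of -3.97. *Sparc*, a collagen-binding matrix protein, had 776 and 46.2 RPM, *Col3a1* 655 (652 to 658) and 57.5 RPM (56.3 to 58.6), *Fn1*, fibronectin, 416 and 19.7 RPM, and *Col1a1* 417 and 18.8 RPM. The E13.5 level of *Col3a1* lay largely in 1 pool, with 257 RPM in pool 1 and 0.456 to 5.88 RPM in the other 4, and pool 1 holds the only E13.5 cell with the mesenchyme list. *Col5a1* was not called, with 39.1 and 31.2 RPM. The mesenchyme markers summed to 2703 RPM at E10.5 and to 2.85 to 591 RPM in the pools of E13.5, with 11 of 12 called higher at E10.5. The exception was *Dcn*, a small proteoglycan, whose log2 ratio was -2.37 with 0.91 in 1 pool.

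Signalling genes were mostly higher at E10.5 where they were called. Of 15 Wnt pathway genes considered (ligands, secreted antagonists, receptors and targets), 11 were called higher at E10.5 and 0 at E13.5, with a median of -4.73. The called genes were the ligand *Wnt2*, the R-spondin *Rspo1*, the antagonists *Sfrp1*, *Sfrp2* and *Dkk2*, the receptors *Fzd1*, *Fzd2* and *Fzd7*, and the targets *Axin2*, *Nkd1* and *Lef1*. *Znrf3* and *Lgr4*, a receptor ligase and a receptor for R-spondins, were not called at 160 and 41.7 RPM and at 134.8 and 34.9 RPM. *Lgr5* was below the filter in bulk cells, with 2.69 RPM (2.49 to 2.90) at E10.5 and 0.412 RPM (0.323 to 0.518) at E13.5, and passed 10 reads in 5 and 1 cells. Of 9 BMP and TGF-beta ligands and Id targets considered, 6 were called higher at E10.5, among them *Id1*, *Id2* and *Id3*, inhibitors of differentiation that BMP signals induce. *Id3* had 1866 and 118.3 RPM, *Id2* 842 and 29.5 RPM, and *Id1* 450 and 57.03 RPM. *Tgfb1* was the 1 gene called in the other direction, with 6.78 and 31.1 RPM.

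Of 10 retinoid genes considered, 8 were called higher at E10.5. *Crabp2* had 514 and 8.16 RPM and the receptor *Rara* 53.9 and 7.25 RPM. *Rdh10*, a retinol dehydrogenase, was not called at 21.7 and 28.4 RPM, nor was *Rarb* at 26.7 and 26.8 RPM. Of 39 Hox genes, 6 were considered and 4 called higher at E10.5. *Hoxc5* had 56.04 and 0.113 RPM, *Hoxc4* 38.8 and 0.0282 RPM and *Hoxb1* 37.99 and 0.0508 RPM. *Hoxa2* had 40.04 and 0.0733 RPM but was not called, as it had 0 reads in pool 2 at both stages.

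Ligands that the fetal liver offers to blood cells were lower at E13.5 where they were called. In the separate list of niche receptors on blood cells, 2 genes were called higher. Of 7 niche ligand genes considered, 5 were called higher at E10.5 and 0 at E13.5. *Mdk*, the growth factor midkine, had 5362 RPM (5353 to 5371) and 63.7 RPM (62.5 to 64.9), a log2 ratio of -6.37, and its single cells ran from 1.61 to 24020 RPM with a median of 4801 at E10.5 and from 0 to 3867 RPM with a median of 7.17 at E13.5. *Ptn*, pleiotrophin, had 1280 and 123.8 RPM, *Dlk1* 251 and 37.8 RPM, *Cxcl12* 128.4 and 15.95 RPM, and *Kitl*, the ligand of Kit, 66.8 (65.8 to 67.9) and 0.175 RPM (0.119 to 0.248). Of 5 receptor genes considered, 2 were called higher at E13.5, which were *Epor*, the erythropoietin receptor, at 59.3 and 314 RPM and the integrin gene *Itga4* at 15.7 and 99.4 RPM. *Kit* was not called at 29.2 and 85.9 RPM, nor was *Igf1r* at 230 and 166.8 RPM.

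Of 13 imprinted genes considered, 11 were called higher at E10.5 and 0 at E13.5. *Peg3* had 1071 and 94.7 RPM, *H19* 943 and 62.4 RPM, and *Cdkn1c*, an inhibitor of cyclin-dependent kinases, 671 and 50.1 RPM. *Grb10*, an adaptor of growth factor receptors, was not called at 993 and 534 RPM. Of the other marker lists, hepatic stellate genes were called in 5 of 5, mesothelium genes in 2 of 3, cholangiocyte genes in 2 of 2 and hepatoblast genes in 4 of 8 considered, all higher at E10.5. Endothelium genes were called in 1 of 5, heart muscle genes in 1 of 2 and muscle progenitor genes in 1 of 1, also higher at E10.5, and 0 of 10 neural genes were considered.

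Neither of the lists for cell division held a called gene. Of 18 DNA replication genes considered 0 were called, with a median log2 ratio of 0.43 (0.37 to 0.80 under the other settings). *Mcm5* and *Mcm3*, subunits of the replicative helicase, had 301 and 735 RPM and 272 and 553 RPM, and *Rrm2*, a subunit of ribonucleotide reductase, 527 and 480 RPM. Of 20 mitosis genes 0 were called, and their median of -0.04 ran from -0.46 to 0.17 under the other settings. *Ube2c* had 573 and 618 RPM, *Top2a* 440 and 566 RPM, and *Mki67*, a mark of cycling cells, 191.1 and 500 RPM (1.38). Among D-type cyclins and CDK inhibitors, *Ccnd1*, *Ccnd2* and *Cdkn1c* were called higher at E10.5 and *Cdkn1a*, an inhibitor induced by p53, higher at E13.5. *Ccnd2* had 558 and 100.3 RPM and *Cdkn1a* 16.5 and 158.1 RPM, while *Ccnd3* was not called at 281 and 311 RPM. The median of that list, -0.09, ran from -0.28 to 0.17 under the other settings.

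Immediate early and heat shock genes, which can respond to tissue handling, were called in 4 of 18, all higher at E10.5 (*Fos*, *Fosb*, *Egr2* and *Atf3*). *Fos* had 758 and 65.8 RPM, with 54.7% and 15.1% of cells past 10 reads, and *Ier2* was not called at 530 and 260 RPM. The heat shock gene *Hspa1a* stood the other way at 5.41 and 68.3 RPM but was below 0 in 1 pool, and *Hsp90aa1* had 562 and 850 RPM. The longer digestion at E13.5, the stage and the mix of cells cannot be told apart for these genes in bulk sums. Within the erythroid-marker cells defined further on, *Fos* had 56.5 and 47.9 RPM and *Fosb* 20.1 and 4.46 RPM, and neither was called. *Egr2* was below the filter there, and *Atf3* was called higher at E13.5, with 0.451 and 19.6 RPM. Of the sex-linked list, 0 of 4 considered were called.

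Genes that the study names for these cells were followed whatever their value. The study gives *Id3*, *Mdk* and *Gpc3* for its hepatoblast cluster. For its hepatocyte-like cluster it gives *Ttr*, *Alb*, *Apoa1*, *Apoa2* and *C3*, and for its cholangiocyte-like cluster the ductal genes *Car2*, *Cd44* and *Bcl11a*. *Gpc3*, a glypican of hepatoblasts and mesenchyme, had 948 RPM (944 to 952) and 7.23 RPM (6.84 to 7.63), and was called higher at E10.5 with *Mdk*, *Id3* and *Afp* (30.1 and 1.18 RPM). *Car2*, carbonic anhydrase of red cells, had 305 and 3470 RPM and was called higher at E13.5, as was *Cd44*, a hyaluronan receptor, with 32.7 and 135.3 RPM. *Apoa2*, *Ttr*, *Alb* and *Apoa1* were lower at E13.5 in the sum, at 185.5 and 8.21, 110.9 and 3.05, 36.9 and 3.16, and 44.3 and 11.1 RPM, but were higher at E13.5 in at least 1 pool, and 39.8% to 53.5% of their E10.5 reads lay in 1 cell. *Bcl11a*, a repressor of embryonic globin, had 102.9 and 141.2 RPM, and *C3* was below the filter with 4.70 and 3.26 RPM. Within the erythroid-marker cells defined further on, *Car2* had 1564 and 4018 RPM, *Cd44* 155.8 and 120.1 RPM and *Bcl11a* 183.5 and 155.7 RPM, and none of them was called.

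To hold cell type closer to constant, stages were compared within cells defined by markers. Mesenchymal-marker cells (at least 3 mesenchyme markers and fewer than 3 erythroid, leukocyte and hepatoblast markers) numbered 120 at E10.5 and 1 at E13.5, so no comparison of stages could be made in them. Erythroid-marker cells (the same rule with erythroid markers) numbered 25 at E10.5 and 29, 17, 26, 27 and 20 in pools 1 to 5 at E13.5, and pools 3, 4 and 5 had at least 5 of each stage. They share their cells with the comparison of all bulk cells. Other classes' genes were low in them, with a median *Col3a1* of 0.572 RPM at E10.5 and 0.822 RPM at E13.5 and a median *Mdk* of 5.26 and 6.29 RPM. The genes leading the E10.5 side in bulk were near 0 in these cells too, *Crabp1* at 0.481 RPM and *Sox11* at 0.963 RPM in E10.5 erythroid-marker cells, against 662 and 669 RPM in E10.5 mesenchymal-marker cells. The 58 E10.5 cells of neither class also had 623 RPM of *Crabp1* and 500.2 RPM of *Sox11*.

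Among 9733 genes considered in erythroid-marker cells, 318 were called higher at E13.5 (3.27%) and 1.47% of genes higher at E10.5, with a median log2 ratio of -0.0012. The markers that chose the cells are given as a description. *Klf1* had 981 RPM at E10.5 and 1489 RPM at E13.5, *Gata1* 355 and 487 RPM, *Epor* 337 and 375 RPM, and *Ank1*, which ties band 3 to the cytoskeleton, 181.1 and 172.1 RPM. The bulk log2 ratios of the same genes were 2.95, 2.23, 2.39 and 2.36. For genes the rule did not use, *Hemgn* had 42.1 RPM (39.9 to 44.3) and 360 RPM (356 to 363) in these cells, *Tspo2* 34.3 and 166.6 RPM, and *Kit* 103.8 and 71.4 RPM.

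The red cell lists held fewer called genes within erythroid-marker cells than in all bulk cells, at shares above the 3.27% of all genes considered there. Of the transcription factor genes 1 of 13 was called higher at E13.5, of the membrane and cytoskeleton genes 3 of 15 and of the haem and iron genes 1 of 15, and 0 were called higher at E10.5. Their median log2 ratios were 0.06, 1.49 and 0.94, where all bulk cells gave 2.23, 3.46 and 2.06. Of the immediate early and heat shock genes 2 of 16, and of the BMP and Id genes 2 of 6, were called higher at E13.5. Of 18 DNA replication and 20 mitosis genes 0 were called, with medians of 0.17 and 0.14. Of the leukocyte markers 1 of 6, and of the megakaryocyte markers 2 of 4, were called higher at E10.5. Without the cells that also held the megakaryocyte list, the log2 ratio of *Itga2b*, an integrin of platelets, was -1.99 in place of -4.42, that of *Coro1a*, an actin-binding protein of leukocytes, -0.53 in place of -4.28, and neither was past 4-fold. The median of the megakaryocyte list was then 1.34 in place of -4.185.

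Adult globins were higher at E13.5 within erythroid-marker cells as well. *Hba-a1* had 120.6 RPM (116.9 to 124.3) and 1785 RPM (1777 to 1792), a log2 ratio of 3.88 with 2.36 to 5.58 over 3 pools. *Hbb-bs* had 501 RPM (493 to 508.4) and 3132 RPM (3122 to 3142), a log2 ratio of 2.64, and *Hbb-bt* 260 and 2302 RPM. The single cells overlapped widely, since *Hbb-bs* ran from 0.695 to 6701 RPM with a median of 85.9 at E10.5 and from 1.45 to 64060 RPM with a median of 89.6 at E13.5. The upper quartiles were 135.5 and 1576 RPM, so the stages were close in the middle of their ranges and apart in the upper part.

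The embryonic beta-like globin *Hbb-bh1* (chr7:103841637-103843164, minus strand) went the other way. It had 3809 RPM (3788 to 3830) at E10.5 and 240 RPM (237 to 242) at E13.5 in erythroid-marker cells, a log2 ratio of -3.98, with medians per cell of 171.7 and 1.70 RPM. At E10.5, 1 cell held 58.4% of its reads. In pools 3, 4 and 5 it had 1486, 3708 and 7683 RPM at E10.5 and 9.50, 54.5 and 28.9 RPM at E13.5, without overlap. Pool 2, which had only 3 E10.5 cells and did not count for the call, went the other way with 489.6 and 1259 RPM. In all bulk cells the gene was not called, at 552 and 177.1 RPM, a log2 ratio of -1.63 that fell short of 4-fold. It was higher at E13.5 in pool 2, where it had 42.7 and 648 RPM. Among E13.5 erythroid-marker cells of pool 2, 1 cell had 21040 RPM of *Hbb-bh1* and *Hbb-y* together, and the others at most 3.85 RPM. *Hbb-y*, the other embryonic beta-like gene, had 17.7 and 39.7 RPM in erythroid-marker cells and 21.5 RPM in E10.5 mesenchymal-marker cells, which should lack it, so that its E10.5 level was not above this background. Its E13.5 level was above it in the sum, but ran from 0 to 22.95 RPM in pools 2 to 5. *Hba-x*, the embryonic alpha-like gene, was not called in bulk cells, at 32.7 and 49.7 RPM.

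Summed over erythroid-marker cells, adult genes gave 16.6% of 152513 beta-like globin reads at E10.5 (16.4 to 16.8) and 95.1% of 746513 at E13.5 (95.1 to 95.2). The adult share of alpha-like reads was 76% and 97.4%. The E10.5 beta sum leaned heavily on 1 cell of pool 5, with 9414 RPM of adult and 41970 RPM of embryonic beta globin. Both were the highest among the E10.5 erythroid-marker cells, and without pool 5 the summed share was 12.96%. Of the 25 E10.5 cells, 12 had mostly adult beta reads. By pool the adult beta share was 63.3%, 35.6%, 14.1%, 10.3% and 18.96% at E10.5, from 1, 3, 6, 9 and 6 cells, and 89.3% to 99.9% at E13.5. Per cell the shift was smaller, with a median adult share of 44.9% over 25 E10.5 cells and 99.3% over the E13.5 cells, in each case those with more than 10 beta-like reads. By pool these medians ran from 11% to 91.6% at E10.5 and from 58.8% in pool 1 to 100% in pool 2 at E13.5, so the pools overlapped. Cells with few globin reads weigh on these medians. Adult beta globin was read at 25.5 RPM in E10.5 mesenchymal-marker cells, against 761 RPM in E10.5 erythroid-marker cells and 5434 RPM in E13.5 ones. Embryonic beta globin was read at 30.9 RPM in E10.5 mesenchymal-marker cells, and at 117.2 RPM in those of pool 1. Pool 1 E13.5 erythroid-marker cells had 143.6 RPM of it. How far such levels set the medians was not tested. The adult level in mesenchymal-marker cells also bears on the shares of cells with globin reads in bulk. There, 65.5% of E10.5 cells had more than 10 reads of *Hbb-bs* and only 39 held the erythroid list.

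**Figure D5:**
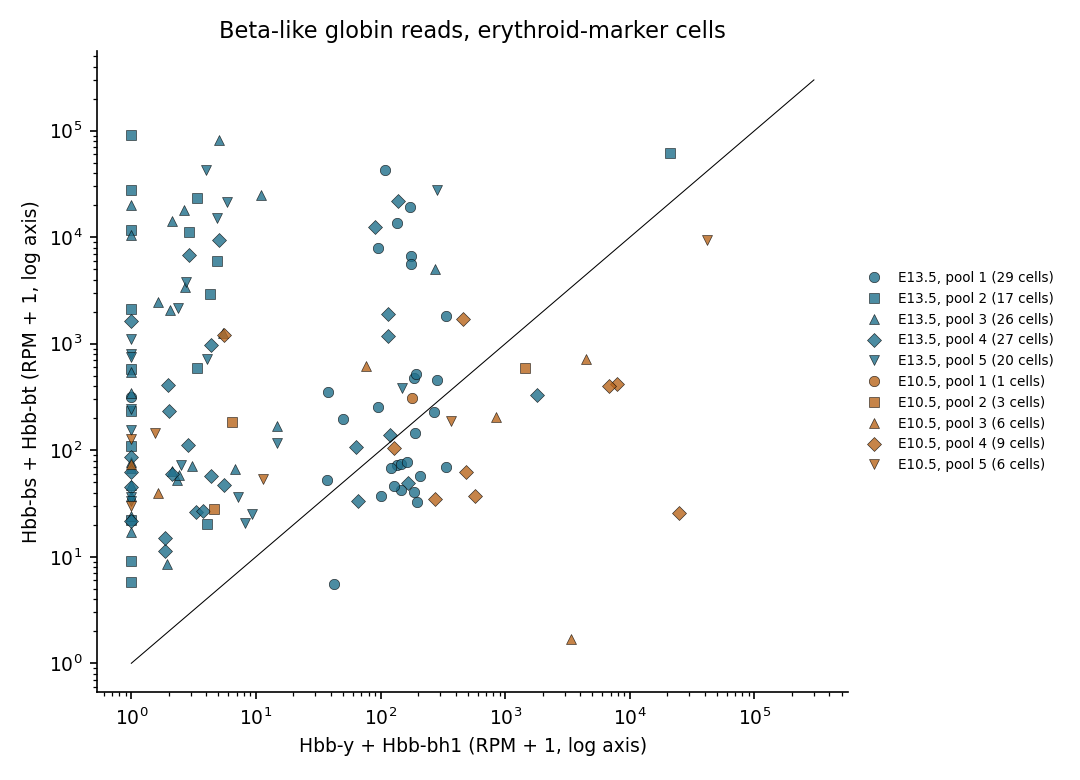
Embryonic (horizontal) and adult (vertical) beta-like globin level of each erythroid-marker cell in RPM + 1 on log axes, coloured by stage and shaped by pool, with a line at equality. E10.5 cells spread to the right and E13.5 cells upward. The summed adult share, which weighs cells by their globin reads, is 16.6% at E10.5 and 95.1% at E13.5. Of the 25 E10.5 cells, 12 had mostly adult beta reads.

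The other leading genes within erythroid-marker cells, outside the markers, rested on few cells. Higher at E13.5 were *Hif1an*, an inhibitor of the hypoxia factor HIF1, with 0.541 and 59.7 RPM, *Relb*, a subunit of NF-kappaB, with 1.14 and 76.2 RPM, *Smad7*, an inhibitor of TGF-beta signalling, with 0.0602 and 31.3 RPM, *Epdr1* with 3.34 and 125.7 RPM, and *Mxd1*, an antagonist of Myc, with 0.241 and 34.8 RPM. They passed 10 reads in 22 to 50 E13.5 cells and in 0 or 1 of only 25 E10.5 cells. For *Smad7* and *Hif1an*, 1 cell of pool 2 held 43.6% and 36.5% of the E13.5 reads, and pool 2 did not count for the sign condition. For the other genes the top cell held from 8.21% (*Mxd1*) to 19.5% (*Epdr1*). *Smad7* rested on 2 reads at E10.5, and E10.5 mesenchymal-marker cells had 32.96 RPM of *Hif1an* and 10.01 RPM of *Relb*. Further down the lists, *Cdkn1a* (7.10 and 74.4 RPM), *Smad6* (0.241 and 27.4 RPM), *Atf3* (0.451 and 19.6 RPM), *Hspa1a* (5.66 and 62.2 RPM) and *Sox6*, a repressor of embryonic globin (19.1 and 183.9 RPM), were also called higher at E13.5.

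Higher at E10.5 were *Plek*, pleckstrin of platelets, with 98.6 to 105.5 RPM (the interval) at E10.5 and 1.05 RPM at E13.5, *Tnni1*, a troponin, with 185.3 and 3.08 RPM, *Sla2*, an adaptor protein, with 112.9 and 2.30 RPM, *Zfp105* with 29.5 and 0.161 RPM, and *Tmsb4x*, which binds actin, with 3275 and 132.3 RPM. For each of them 1 cell held 47.3% to 60.96% of the E10.5 reads, and for 4 of the 5 that cell held 8 or 9 of the 10 megakaryocyte markers. Without the 6 erythroid-marker cells that also held the megakaryocyte list, *Plek* and *Tmsb4x* had log2 ratios of -1.72 and -1.85 in place of -5.65 and -4.62 and were no longer past 4-fold, *Sla2* had -2.49, and *Zfp105* stood at -4.89. *Hbb-bh1* had -2.31 without them. That setting left out 5 E10.5 cells and 1 E13.5 cell.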

How the data were processed

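Single-cell Smart-seq2 libraries of 362 bulk Liv2+ cells were sequenced as single-end reads in 5 library pools on 3 flow cells. The authors aligned reads with STAR 2.6.0c to GRCm38.p6 and counted uniquely aligned reads per gene with featureCounts (Subread 1.6.2), and deposited the raw counts used here. They had removed cells by mitochondrial and spike-in reads, depth and gene number, with limits on gene number set per sort, so the range of depth is partly set by them. A normalised table was not used, nor were 291 columns of other cells. Symbols were found for 54042 of 54195 genes.

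Counts were summed over the cells of a stage and given as RPM with a pseudocount of 1 RPM. Considered genes had at least 3 reads in at least 5% of the cells compared. Pools counted with at least 5 cells of each stage. Since a stage is 1 sample, no test was run. Members, lists and rules were chosen with earlier results of these data known. The text names the leading genes of each direction (15 in bulk, 5 in erythroid-marker cells), the most abundant, opposite and defining genes of each list, and genes named by the study. Other settings were the fold limit, scaling (TMM of edgeR 4.0.16 in R 4.3.3, or centring on the median gene), pseudocount, filter, thinning to 100000 reads per cell, the marker limit and leaving out each pool. The calculation was tested on simulated data. Python 3.11.15, numpy 2.4.6, pandas 2.3.3, scipy 1.17.1 and matplotlib 3.10.9 were used. Gene coordinates are those of GENCODE on GRCm38, and promoter sequences those of RefSeq on GRCm38.p6, where 136 of 230 and 696 of 1227 called genes had 1 window. *Hbb-bh1* had no entry. A few genes that the rule names are not reported here, but were kept in lists and counts.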

Additional observations from a re-analysis of the deposited data

How the results depend on the processing

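Shares of considered genes called depended on the fold limit and the pools. The share higher at E13.5 in bulk cells was 6.98% (751 genes) at 2-fold, 0.642% (69 genes) at 8-fold, 7.40% (602 genes) in pools 1 and 2 alone and 2.08% to 2.67% without 1 pool, in place of 2.14% (230 genes). The share higher at E10.5 was 12.02% to 12.7% without 1 pool, in place of 11.4%, and no setting moved that number of genes by over 1.5 times. Fewer pools must share a sign when 1 is left out. TMM scaling gave 287 and 1079 genes and centring on the median 271 and 1120. In erythroid-marker cells, the share higher at E13.5 was 8.55% (832 genes) at 2-fold, 5.01% (495 genes) without cells holding the megakaryocyte list and 3.24% to 6.44% (613 genes, without pool 4) without 1 pool, in place of 3.27%. Leaving out the cells with the megakaryocyte list also left 2 pools to share a sign in place of 3. The share higher at E10.5 was 1.096% (89 genes) after thinning, 4.85% (472 genes) at 2-fold and 1.498% to 3.03% (288 genes, without pool 4) without 1 pool, in place of 1.47%, and without pools 3 and 5 the 2 shares were 5.08% and 2.37%, and 4.75% and 2.51%.

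Shares of cells with a marker list depended on the reads required per marker. With 1 read the erythroid share was 89.2% at E10.5 and 99.4% at E13.5, the mesenchyme share 93.1% and 64.15%, the hepatoblast share 47.8% and 13.8% and the leukocyte share 28.6% and 45.9%. With 3 reads the erythroid share was 30.5% and 90.6%, the mesenchyme share 71.4% and 17.6% and the E10.5 hepatoblast share 22.7%. With 2 markers the E13.5 erythroid share was 91.8%, the E10.5 mesenchyme share 68.5% and the E10.5 leukocyte share 14.3%, and with 5 markers they were 67.9%, 36.45% and 0.493%. Without 1 pool, erythroid shares ran from 13.7% to 23.6% and 76.8% to 88%, mesenchyme shares from 56.6% to 63.6% and 0% to 0.80%, hepatoblast shares from 2.47% to 4.97% and 0.741% to 1.6%, and leukocyte shares from 3.73% to 8.70% and 7.94% to 12.8%. The lowest E10.5 erythroid and leukocyte shares were those without pool 4. The adult share of beta-like reads was 51.85% and 84.7% as a mean over cells, and 12.96% to 19.02% and 93.8% to 98.4% without 1 pool.

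Of the named called genes, 98 of 98 higher at E10.5 and 48 of 48 higher at E13.5 in bulk cells kept 1 direction in every setting run, 87 and 35 of them past 4-fold throughout. In erythroid-marker cells 9 of 10 and 24 of 24 did. The exception was *Crabp2*, at -3.47 to 0.0812 without 1 pool, the highest without pool 2, in place of -3.04. The cause was not tested.

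No paired analysis was possible because replicate numbers only follow the order of the samples and the labels tie no cell to an embryo or sort. The 5 pools each hold both stages, and calls were made within them by sign without a test. Comparisons within mesenchymal-marker cells were not run under any setting, since 1 such cell was found at E13.5. The 2-fold limit in erythroid-marker cells, the removal of megakaryocyte-marker cells, the restriction to cells with a marker list and the alternatives for the adult share were chosen after seeing the data.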
